A study of Drosophila melanogaster with 8 samples.

Results

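Glycerol metabolism and the aquaporin family were followed at the transcript level in larval hemocytes of Drosophila melanogaster through 8 genes: Gpdh1 and Gpo1, the glycerol-3-phosphate dehydrogenase and oxidase genes, and the aquaporin genes Eglp1, Eglp2, Eglp3, Eglp4, Drip and Prip. They were taken by matching their FlyBase identifiers to the 11769 genes of the count table. A row was present for 7 of them, and 5 had enough counts to enter the test across 7844 genes. The genes were chosen by their function and with their diet differences in these same libraries known, so those differences are given as a description, and no support is drawn from how many of them were called.

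Glycerol-3-phosphate is made from the glycolytic intermediate dihydroxyacetone phosphate by the cytosolic, NADH-using dehydrogenase Gpdh1. It can be oxidised back at the outer face of the inner mitochondrial membrane by the FAD-linked enzyme Gpo1, which passes the electrons to the respiratory chain, or it can serve as the backbone of phospholipids and stored triglyceride. Aquaporins are membrane channels. Prip and Drip are known as water channels, and the Eglp genes encode entomoglyceroporins, the insect channels that pass glycerol as well as water.

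The high-sugar diet (HSD) was the sucrose-yeast medium of the control diet (CD) with a 10x sucrose supplement, and each diet had 4 libraries: HSD replicates 1, 2, 3 and 4, and CD replicates 1, 3, 4 and 5. All larvae were in the third instar, kept at 25 °C and labelled wild-type, and the design text gives the hmlΔ>2xeGFP reporter, which is driven by the Hemolectin (Hml) promoter and marks hemocytes. Per the series' design text, 5 larvae were bled for each collection, at 96 h after eggs were laid, 20000 GFP-positive cells were sorted for a replicate, and poly(A) RNA was sequenced. The labels do not say whether replicates came from separate cultures or sorts, so p-values reflect only how these libraries vary, which may be technical.

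Total counts ran from 21404732 to 23353269 in the HSD libraries and from 20817891 to 24733521 in the CD libraries. Hml itself was read at 18318 to 22507 CPM (counts scaled to the TMM-adjusted library size) in HSD, against 14090 to 18444 CPM in CD. The sorted pool was not of a single class: markers of plasmatocytes (macrophages) and of crystal cells were both read. Plasmatocyte markers summed to 105526 to 119965 CPM in HSD, against 73682 to 84563 CPM in CD. Crystal cell markers summed to 32359 to 49497 CPM in HSD, against 24391 to 28904 CPM in CD. Of 10 plasmatocyte markers 8 were called higher on HSD and none lower, and of 7 crystal cell markers 6 were called higher and none lower. Among all tested genes 14.4% were called higher and 11.6% lower. Earlier results of these data set HSD replicate 4 and CD replicate 1 apart from the rest of their diets. HSD replicate 4 had the lowest crystal marker sum of its diet. Fat body and muscle markers summed to 15.5 to 24.0 and 12.7 to 16.5 CPM in HSD and to 15.5 to 76.1 and 10.6 to 13.4 CPM in CD.

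Gpdh1 lies on chromosome 2L from 5943643 to 5948968 (plus strand, dm6). It was read at 179, 180, 175 and 184 CPM in HSD replicates 1 to 4, against 135, 127, 135 and 131 CPM in CD replicates 1, 3, 4 and 5. The diets did not overlap, with all HSD libraries higher, and within each diet the libraries were close together. The means were 179 ± 3.73 CPM in HSD and 132 ± 3.53 CPM in CD (SD, n = 4 each), which is 1.36-fold (log2 fold change 0.44, standard error 0.0431; called higher by edgeR's quasi-likelihood fit). In these bulk samples a change in the number of cells of a type and a change in RNA per cell cannot be told apart. Of the annotated exonic length of Gpdh1 22.1% is shared with lncRNA:CR44986 on the opposite strand, which had no row in the table; the strand setting of the counting is not given in the sources used here, so reads of the antisense transcript could not be told apart from those of Gpdh1.

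Gpo1, on chromosome 2R from 15857752 to 15862755 (minus strand), was the scarcer transcript of the shuttle pair. It was read at 12.0, 10.5, 12.3 and 13.1 CPM in HSD replicates 1 to 4, against 5.73, 6.65, 5.64 and 6.40 CPM in CD replicates 1, 3, 4 and 5. The diets did not overlap. The difference in log2 was 0.97 with a standard error of 0.0977, or 1.96-fold (edgeR, called higher), on means of 12.0 ± 1.07 CPM in HSD and 6.10 ± 0.496 CPM in CD. Since Gpo1 differed by more than Gpdh1, the ratio of Gpdh1 to Gpo1, each as TPM, a library-scaled level that corrects for exonic length, was lower on HSD: 13.0 to 15.9 in the HSD libraries and 17.8 to 22.2 in the CD libraries. This ratio is taken within a library and so does not depend on the scaling between libraries.

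**Figure D1:**
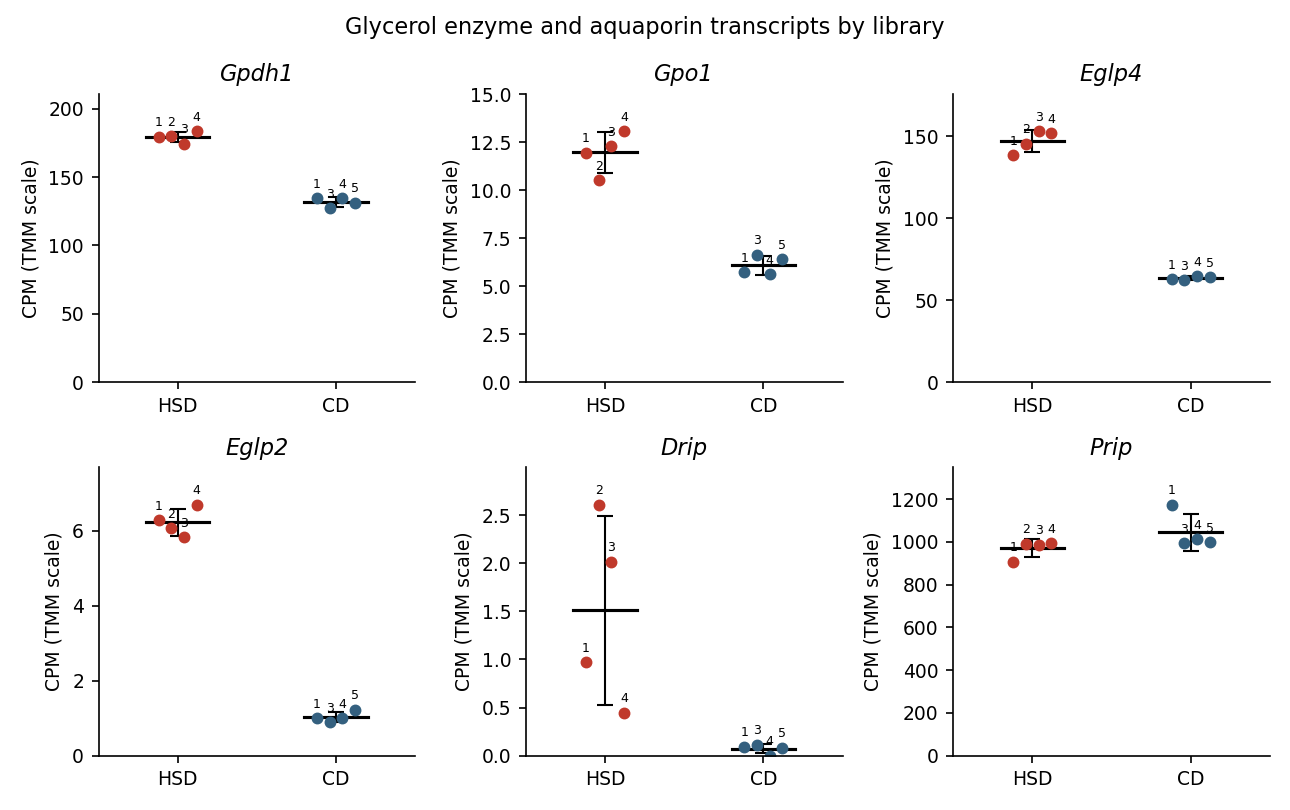
CPM (TMM-scaled, linear axes from 0) of 6 genes in each library, with HSD left of CD; numbers beside points are replicate numbers, and bars are mean ± SD over 4 libraries. Gpdh1, Gpo1, Eglp4, Eglp2 and Drip show no overlap between the diets, Drip is spread from 0.446 to 2.61 CPM within HSD, and Prip overlaps, with HSD replicate 1 low at 908 CPM and CD replicate 1 high at 1174 CPM.

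The 4 Eglp genes lie side by side on chromosome 2R within 14.17 kb. Eglp1 (23602585 to 23603641) is on the plus strand and the others are on the minus strand. Eglp2 (23603722 to 23616754) has a distal start from which its annotated intron runs across all of Eglp3 (23605689 to 23606654) and Eglp4 (23607592 to 23614710), and that start lies 2.044 kb beyond the most distal start of Eglp4. No annotated exon of an Eglp gene overlaps an exon of another gene. Counts per gene do not tell which start was used. The Eglp genes are paralogs, and how reads matching several genes were counted is not given in the sources used here.

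Eglp4, the most abundant glycerol channel transcript, was read at 138, 145, 153 and 152 CPM in HSD replicates 1 to 4, against 62.7, 62.2, 64.7 and 64.0 CPM in CD replicates 1, 3, 4 and 5. The diets were far apart relative to their spread, and the CD libraries varied by 1.83% (coefficient of variation), where counting alone gives 2.59%. The means were 147 ± 6.75 CPM in HSD and 63.4 ± 1.16 CPM in CD, a log2 fold change of 1.22 with a standard error of 0.0478, or 2.32-fold (edgeR, called higher). Its fitted variation between libraries was low, at the 6.68th percentile of all tested genes.

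Eglp2 showed the greatest difference of the tested members on far fewer reads. It had 136, 128, 130 and 135 counts in HSD replicates 1 to 4, against 21, 24, 23 and 29 counts in CD replicates 1, 3, 4 and 5. On the CPM scale these were 5.82 to 6.69 in HSD and 0.896 to 1.23 in CD, with no overlap. In the edgeR fit it was 6.01-fold and called higher, at a log2 fold change of 2.59 (standard error 0.154), and 28 of the 7844 tested genes had a higher log2 fold change. The ratio of summed counts per scaled library size, 529 counts in HSD and 97 counts in CD, was 6.04 with an exact 95% counting interval of 4.85 to 7.58, which covers counting error only.

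Eglp3 had 2, 2, 0 and 0 counts in HSD replicates 1 to 4, and 0 counts in every CD library. All libraries were thus at or under the limit of 3 counts that a count of 0 allows, 0.134 to 0.149 CPM in HSD, against 0.112 to 0.142 CPM in CD, and no fold is given. Eglp1 had no row in the table analysed, where the smallest gene total across 8 libraries was 2 counts. Within the cluster, measurable transcript therefore came from Eglp2 and Eglp4, and the ratio of Eglp4 to Eglp2 TPM was 15.1 to 18.1 in the HSD libraries and 35.8 to 47.6 in the CD libraries.

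Tested genes on either side of the cluster had smaller log2 fold changes than Eglp2 and Eglp4. As Eglp2 and Eglp4 were chosen with their diet differences known, nothing is read from this. Of the 3 tested genes nearest to the cluster on each side, 5 were not called, where 26.0% of all tested genes were called in either direction. These 5, which include apt, the nearest of them to Eglp1, had log2 fold changes from −0.10 to 0.01. St3, 66.623 kb away on the other side, rose 1.69-fold, at 97.2 ± 15.4 CPM in HSD and 57.6 ± 5.79 CPM in CD (edgeR adjusted p = 0.000597). CG43209, which lies between apt and Eglp1, had 4 counts over the HSD libraries and 1 over the CD libraries.

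**Figure D2:**
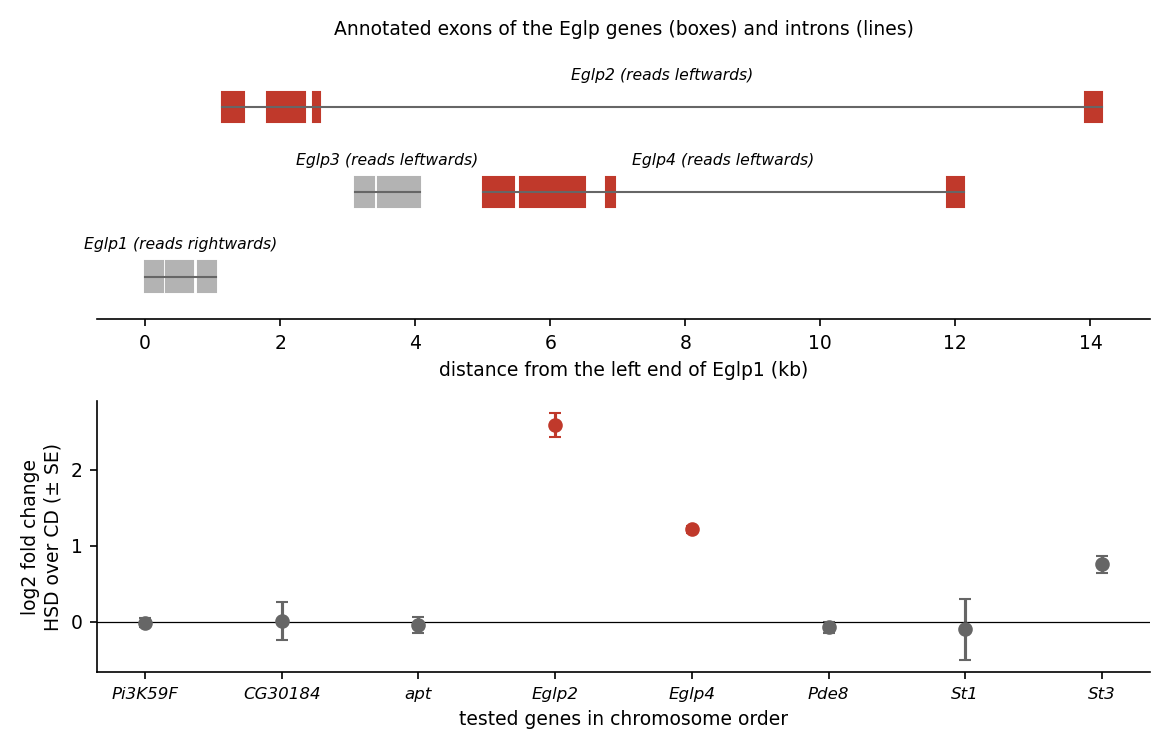
Top: annotated exons (boxes) and introns (lines) of the Eglp genes by distance in kb from the left end of Eglp1, with Eglp2 and Eglp4 in red and Eglp1 and Eglp3, which had no row or stayed at or under 2 counts, in grey. Bottom: log2 fold change of HSD over CD with its standard error, in chromosome order. Shown are Eglp2, Eglp4 and the 3 nearest tested genes on each side. Of these neighbours St3 alone was called, at 0.76, where 26.0% of all tested genes were called in either direction.

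Prip, on chromosome 2R from 11436243 to 11442216 (plus strand), was by far the most abundant aquaporin transcript. It was read at 908, 993, 988 and 994 CPM in HSD replicates 1 to 4, against 1174, 994, 1014 and 997 CPM in CD replicates 1, 3, 4 and 5. The libraries overlapped, with HSD replicate 1 below and CD replicate 1 above all other libraries. In the edgeR fit its log2 fold change of −0.11 (standard error 0.0629) was not called. It was −0.04 with a standard error of 0.0450 without CD replicate 1 and −0.07 without HSD replicate 1. The call rests on the scaling: scaled by library size alone the log2 fold change was −0.27 and Prip was called lower, and on the TPM scale, which is also not TMM-scaled, the libraries did not overlap, at 999 to 1083 TPM in HSD and 1247 to 1323 TPM in CD.

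Drip is the neighbour of Prip, 6.597 kb away on the opposite strand (2R, 11411203 to 11429645), and is known from the stellate cells of the renal tubule. It had 21, 55, 45 and 9 counts in HSD replicates 1 to 4, against 2, 3, 0 and 2 counts in CD replicates 1, 3, 4 and 5. Every HSD library was above every CD library, but the HSD libraries themselves varied by 64.9% in CPM, where counting alone gives 17.5%. Drip did not pass the filter on low counts. The ratio of summed counts per scaled library size, 130 counts in HSD and 7 counts in CD, was 20.6 with an exact 95% counting interval of 9.70 to 52.2. Fitted without that filter, Drip had a log2 fold change of 4.25 (standard error 0.654), a value that depends on the prior count for the CD libraries. The gene CG7763 lies inside the span of Drip, and no exon of Drip overlaps an exon of another gene.

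Some markers of other cells are set beside Drip. Of these, ItgaPS4 and atilla were picked outside the rule by which genes were named. Lamellocytes are flat hemocytes that encapsulate parasitoid eggs. Their marker ItgaPS4 had 43, 118, 83 and 35 counts in HSD replicates 1 to 4, and 0, 0, 2 and 0 counts in CD replicates 1, 3, 4 and 5. Within HSD the order of the libraries was the same for ItgaPS4 and Drip, replicate 2 first, then 3, 1 and 4. The summed crystal cell markers had this order too, at 44945, 49497, 47805 and 32359 CPM in HSD replicates 1 to 4. Another lamellocyte marker, atilla, had 78, 135, 170 and 132 counts in HSD replicates 1 to 4 and 2, 0, 2 and 15 counts in CD replicates 1, 3, 4 and 5, so HSD replicate 4 was not its lowest library. Of the 6 markers on this list 5 had a row and 4 were called higher, where 14.4% of all tested genes were called higher. The ranges of their sum overlapped, 969 to 1220 CPM in HSD, against 852 to 1172 CPM in CD. Neither the part of lamellocytes nor that of crystal cells in the Drip difference was tested.

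The renal tubule marker Uro had 2, 5, 5 and 17 counts in HSD replicates 1 to 4 and 3, 3, 2 and 1 counts in CD replicates 1, 3, 4 and 5, and was highest in HSD replicate 4. Of the 7 tubule markers ZnT35C and Oatp58Dc had no row, and those with a row other than NtR summed to 0.537 to 1.04 CPM in HSD, against 0.306 to 0.560 CPM in CD. NtR alone brought the sum to 2784 to 2867 CPM in HSD, against 1846 to 1905 CPM in CD. The part of renal tubule cells in the Drip difference was not tested either. The crystal cell marker lz was read at 100, 102, 98.6 and 77.8 CPM in HSD replicates 1 to 4, and at 59.5 to 63.5 CPM in CD.

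**Figure D3:**
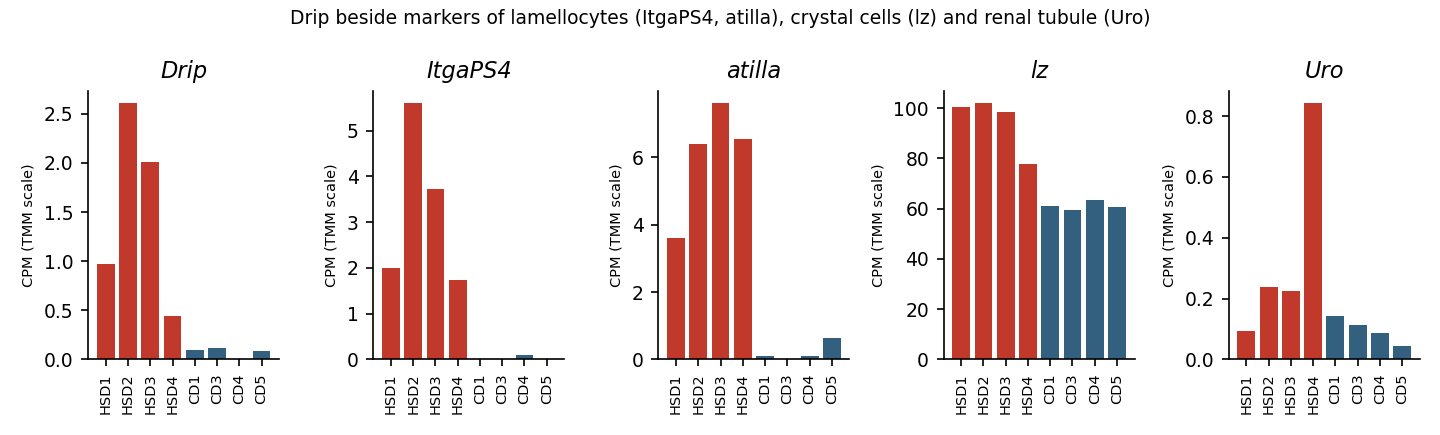
CPM (TMM-scaled, linear axes from 0) of Drip, the lamellocyte markers ItgaPS4 and atilla, the crystal cell marker lz and the renal tubule marker Uro in each library, HSD (red) left of CD (blue). Drip, ItgaPS4 and lz are highest in HSD replicate 2 and lowest of their diet in HSD replicate 4. In contrast, atilla is highest in HSD replicate 3 and lowest of its diet in HSD replicate 1, and Uro is highest in HSD replicate 4 at 0.842 CPM.

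Of the 5 tested members 4 were called higher and none lower, where 14.4% of all tested genes were called higher, 11.6% lower and 26.0% in either direction. The same 4 lay higher in every HSD library than in any CD library, as did 15.1% of all tested genes. The median log2 fold change of the 5 was 0.97, beside −0.01 for all tested genes. As the genes were selected on this contrast, nothing is read from these shares. Without HSD replicate 4 and CD replicate 1 together, the log2 fold changes were 0.45 for Gpdh1, 0.90 for Gpo1, 2.55 for Eglp2, 1.20 for Eglp4 and −0.05 for Prip.

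Levels of different genes were compared as TPM. On HSD the order was Prip at 1043 ± 36.4, Eglp4 at 141 ± 6.00, Gpdh1 at 98.4 ± 1.69, Eglp2 at 8.67 ± 0.373, Gpo1 at 7.07 ± 0.605, Drip at 1.05 ± 0.680 and Eglp3 at 0.0905 ± 0.104 TPM (SD, n = 4). On CD it was Prip at 1275 ± 33.9, Gpdh1 at 82.4 ± 3.71, Eglp4 at 69.2 ± 4.27, Gpo1 at 4.11 ± 0.484, Eglp2 at 1.64 ± 0.250 and Drip at 0.0570 ± 0.0395 TPM, with Eglp3 at 0. Ranges of neighbours in these orders did not overlap, apart from Drip and Eglp3 on CD. Prip ranked 165th on HSD and 145th on CD among 11698 genes with a length.

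Eglp4 and Gpdh1 changed places between the diets, and so did Eglp2 and Gpo1. The ratio of Eglp4 to Gpdh1 TPM was 1.35 to 1.53 in the HSD libraries and 0.813 to 0.854 in the CD libraries. The ratio of Eglp2 to Gpo1 TPM was 1.12 to 1.36 in HSD and 0.319 to 0.454 in CD. With the longest annotated transcript as the length these ratios were 1.52 to 1.73 in HSD and 0.917 to 0.963 in CD for Eglp4 over Gpdh1, and 1.10 to 1.34 in HSD and 0.312 to 0.445 in CD for Eglp2 over Gpo1.

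**Figure D4:**
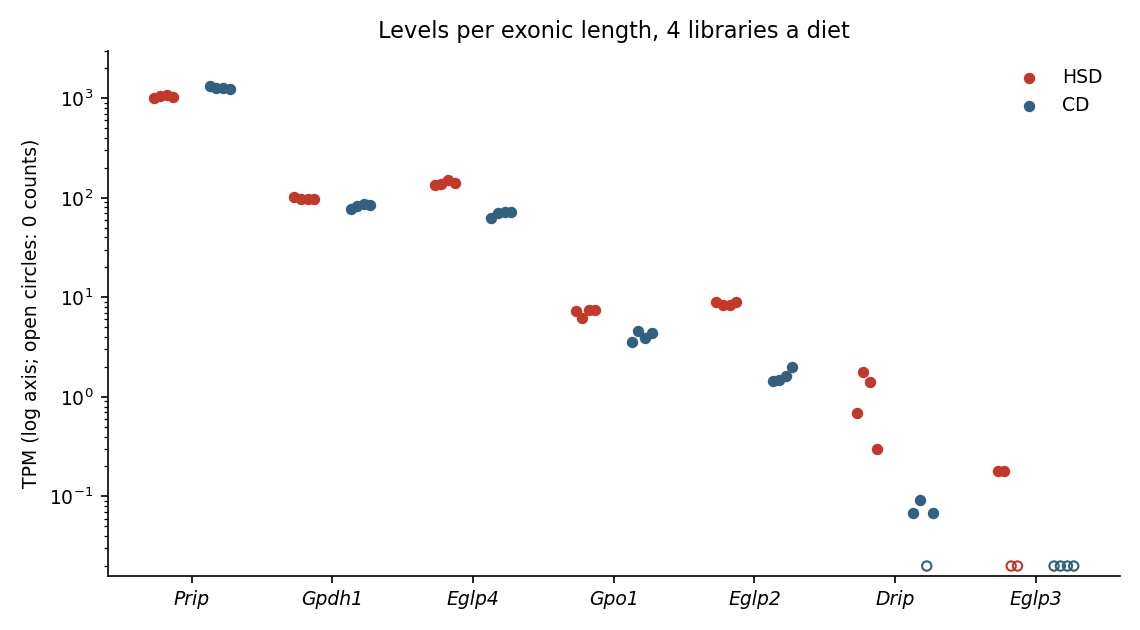
TPM (log axis) of the 7 listed genes in each library, HSD (red) left of CD (blue); open circles at the bottom mark libraries with 0 counts. Prip is the highest on both diets, Eglp4 is above Gpdh1 on HSD and below it on CD, and Eglp2 is above Gpo1 on HSD and below it on CD.

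The aquaporin transcripts were thus apportioned differently on the diets. Prip made up 87.4 ± 0.221% of the summed TPM of the listed aquaporin members on HSD and 94.7 ± 0.423% on CD. Eglp4 made up 11.8 ± 0.250% on HSD and 5.15 ± 0.410% on CD, Eglp2 0.728 ± 0.0552% on HSD and 0.122 ± 0.0205% on CD, and Drip 0.0870 ± 0.0550% on HSD and 0.00425 ± 0.00296% on CD. The summed Eglp level was 145 to 158 TPM in HSD and 64.5 to 74.2 TPM in CD. Prip stood 6.86 to 7.21 times above that sum in the HSD libraries and 17.01 to 20.5 times above it in the CD libraries. These shares and ratios are within libraries. The summed aquaporin TPM, 1145 to 1243 in HSD and 1320 to 1388 in CD, is on a scale without TMM and carries the same limit as Prip.

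Beyond the members, 46 genes of neighbouring steps were examined in 6 lists, of which 44 had a row and 38 were tested. Of these 38, 11 were called higher and 6 lower, where 14.4% of all tested genes were called higher and 11.6% lower. Their median log2 fold change was 0.00 beside −0.01 for all tested genes. Scaled by library size alone, 6 were called higher and 14 lower, and the median of all genes shifted by −0.16. The genes named from the lists are the 3 with the smallest p, the paralogs of members and the glycerol kinase genes, CG1271 and CG8298 counted among these. With their values already known, mino, Gpat4, Gapdh1, Gapdh2, Ald1, Got1, Mdh1, Mdh2, aralar1 and fray were added.

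Among paralogs of Gpdh1 and Gpo1 and the glycerol kinase genes no call was higher. Of 8 other glycerol and glycerol-3-phosphate enzyme genes 6 were tested, none was called higher and 1 was called lower, with a median log2 fold change of −0.09. The shares of all tested genes were 14.4% higher and 11.6% lower. Gk2, a glycerol kinase, fell by 0.49 on the log2 scale (standard error 0.0782, edgeR adjusted p = 0.000564): it was read at 9.47, 9.44, 10.5 and 11.0 CPM in HSD replicates 1 to 4, against 14.0, 14.5, 13.5 and 14.6 CPM in CD replicates 1, 3, 4 and 5. Its paralog Gk1 was read at 78.1 ± 2.85 CPM in HSD and 78.9 ± 3.19 CPM in CD (log2 fold change −0.02, edgeR adjusted p = 0.850), and CG1271 and CG8298, on the same list, had log2 fold changes of 0.10 and −0.04 (edgeR adjusted p = 0.191 and 0.785).

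Gpo2, a paralog of Gpo1, was scarce and not called, at 1.30 ± 0.527 CPM in HSD and 2.23 ± 0.465 CPM in CD (log2 fold change −0.78 ± 0.275 SE, edgeR adjusted p = 0.0545). It was called lower in 6 of 15 alternative fits, among them the fit without HSD replicate 4, where it had a log2 fold change of −1.09 (edgeR adjusted p = 0.00707). Gpdh3, a paralog of Gpdh1, was read at 15.1 ± 2.14 CPM in HSD and 16.7 ± 2.31 CPM in CD (log2 fold change −0.14, edgeR adjusted p = 0.420). Gpdh2 and Gpo3 had no row. Whether Gpo1 and Gpo2, or Gpdh1 and Gpdh3, differed in their response to diet was not tested.

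The other aquaporin genes were near the limit of detection. bib, which encodes the channel-family protein Big brain, had 43 counts over the HSD libraries and 98 over the CD libraries, 76 of which were in CD replicate 1 (log2 fold change −1.10 ± 0.981 SE, edgeR adjusted p = 0.459). Without CD replicate 1 its log2 fold change was 0.74. AQP had 31 counts over the HSD libraries and 37 over the CD libraries and was not tested.

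In glycerolipid assembly, the steps that start from glycerol-3-phosphate, 4 of 7 tested genes were called higher and none lower, with a median log2 fold change of 0.23. Of all tested genes 14.4% were called higher and 11.6% lower. mdy, the diacylglycerol acyltransferase gene of triglyceride synthesis, rose 1.94-fold and was read at 72.7, 65.6, 61.6 and 68.0 CPM in HSD replicates 1 to 4, against 34.8, 32.7, 36.5 and 34.2 CPM in CD replicates 1, 3, 4 and 5 (edgeR adjusted p = 4.42e-07). Cds, the CDP-diacylglycerol synthase gene of phospholipid synthesis, rose 1.49-fold (edgeR adjusted p = 1.58e-05). Lpin, the phosphatidate phosphatase gene, rose 1.45-fold (edgeR adjusted p = 0.0016), with HSD replicate 4 the lowest of its diet at 57.9 CPM, beside 77.0 to 81.1 CPM in the other HSD libraries and 49.1 to 55.8 CPM in CD. mino, a glycerol-3-phosphate acyltransferase gene at the entry of the pathway, rose 1.17-fold (edgeR adjusted p = 0.0120), but was not called under library-size scaling alone (adjusted p = 0.465) or with a replicate block (adjusted p = 0.131). Gpat4, another glycerol-3-phosphate acyltransferase gene, was not called (log2 fold change 0.07, edgeR adjusted p = 0.317). Genes on the opposite strand cover 42.4% of the exonic length of mino and 11.7% of that of Cds, and kermit on the same strand covers 10.9% of that of Lpin.

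In lipolysis, which releases glycerol from stored fat, 2 of 5 tested genes were called higher and none lower, with a median of 0.15. The shares of all tested genes were 14.4% higher and 11.6% lower. bmm, the triglyceride lipase gene brummer, rose 1.48-fold, at 21.3 ± 2.77 CPM in HSD and 14.4 ± 1.74 CPM in CD (edgeR adjusted p = 0.00167). Hsl, the hormone-sensitive lipase gene, was 1.11-fold higher (edgeR adjusted p = 0.0443), and that call was lost without any 1 of HSD replicates 1 to 4 or CD replicates 3, 4 and 5 (log2 fold change 0.14 to 0.17, adjusted p 0.0543 to 0.136), with no low-count filter (adjusted p = 0.0952) and with a replicate block (adjusted p = 0.254), and under library-size scaling alone its log2 fold change was −0.011 (adjusted p = 0.886). dob, a paralog of bmm, was read at 16.8 ± 1.86 CPM in HSD and 22.4 ± 5.36 CPM in CD (log2 fold change −0.41, edgeR adjusted p = 0.0737), and it was called lower in 5 of 16 alternative fits: under library-size scaling alone (adjusted p = 0.00592), with DESeq2 (0.0251), with limma-voom (0.0191), without CD replicate 4 (log2 fold change −0.50, adjusted p = 0.0338), and without CD replicate 1 and HSD replicate 4 together (0.00443).

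Around the triose phosphates and cytosolic NADH, which feed and are used by Gpdh1, 2 of 11 tested genes were called higher and 4 lower, with a median log2 fold change of −0.05. Of all tested genes 14.4% were called higher and 11.6% lower. The genes called lower were Tpi, the triose phosphate isomerase gene (−0.82, edgeR adjusted p = 0.000723), Pfk, the phosphofructokinase gene (−0.52, adjusted p = 2.8e-05), and the glyceraldehyde-3-phosphate dehydrogenase genes Gapdh2 and Gapdh1 (−0.35 and −0.27, adjusted p = 0.0013 and 0.0022). Pfk was read at 18.6 to 20.5 CPM in HSD, against 26.5 to 29.1 CPM in CD. Ald1, the aldolase gene, leaned the other way and was not called (log2 fold change 0.20, edgeR adjusted p = 0.0663). It was read at 694 ± 68.0 CPM in HSD and 604 ± 38.4 CPM in CD. The genes called higher were those of the aspartate aminotransferases of the malate-aspartate shuttle, a further route for cytosolic NADH: the mitochondrial Got2 rose 1.31-fold (edgeR adjusted p = 0.00022) and the cytosolic Got1 1.17-fold (adjusted p = 0.0115). Mdh1, Mdh2 and aralar1, the other genes of that shuttle on the list, were not called. Their log2 fold changes were −0.05, −0.03 and 0.02 (edgeR adjusted p = 0.622, 0.711 and 0.828). The Got1 call was lost under library-size scaling alone (adjusted p = 0.421) and with a replicate block (adjusted p = 0.0668), and those of Gapdh1 and Gapdh2 with a replicate block (adjusted p = 0.126 and 0.0564).

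Among genes of cell volume control and ion cotransport, which act with water channels when osmolarity changes, 3 of 8 tested genes were called higher and 1 lower, with a median log2 fold change of −0.22. The shares of all tested genes were 14.4% higher and 11.6% lower. kcc, the potassium-chloride cotransporter gene, rose 1.20-fold, at 70.0 ± 2.34 CPM in HSD and 58.3 ± 3.26 CPM in CD (edgeR adjusted p = 0.00341), a call lost under library-size scaling alone (adjusted p = 0.237) and with a replicate block (adjusted p = 0.0740). Ncc69, the sodium-potassium-chloride cotransporter gene, rose 1.20-fold (edgeR adjusted p = 0.0166), lost without HSD replicate 1 or 3 (adjusted p = 0.0514 and 0.0561), under library-size scaling alone (0.344) and with a replicate block (0.186).

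The chloride channel gene ClC-a had 59 counts over the HSD libraries and 22 over the CD libraries (2.93-fold, edgeR adjusted p = 0.0133). It passed the low-count filter through its HSD libraries, and the call was lost without HSD replicate 2 (adjusted p = 0.050) and with a replicate block (adjusted p = 0.215). fray, a kinase gene that acts on these cotransporters, fell by 0.20 on the log2 scale (edgeR adjusted p = 0.0489). That call was lost without any 1 of HSD replicates 1, 2 and 3 or CD replicates 3, 4 and 5 (adjusted p = 0.0659 to 0.141), with the stricter low-count filter (0.0543) and with a replicate block (0.326). CG7694 on the same strand covers 12.8% of the exonic length of fray.

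**Figure D5:**
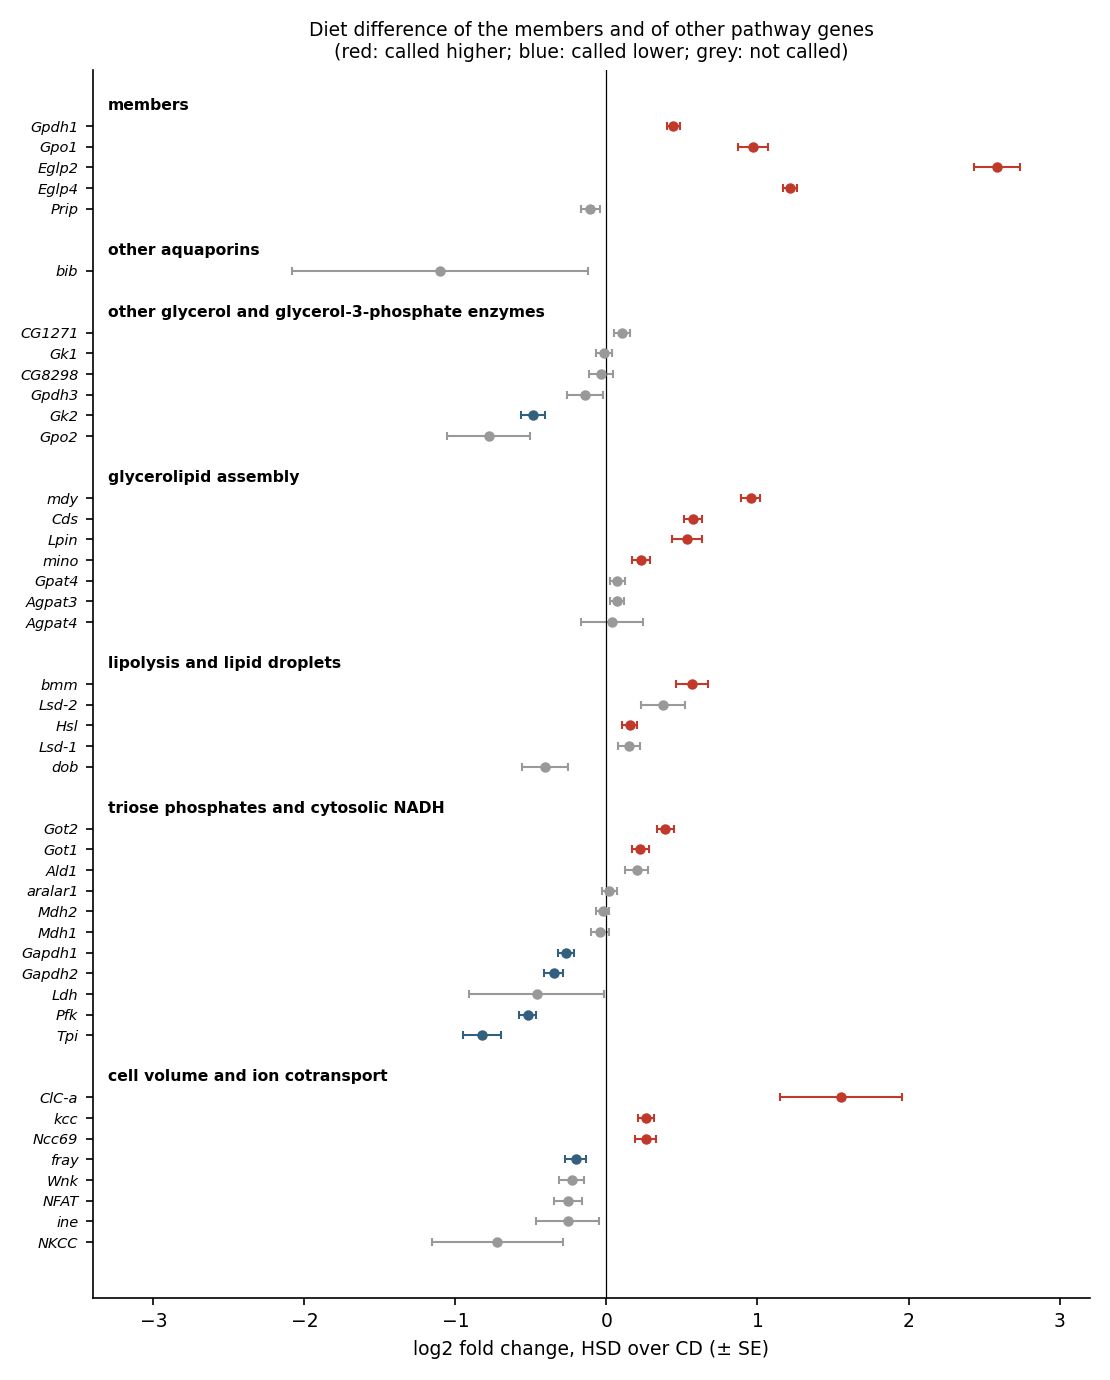
Log2 fold change of HSD over CD with its standard error (edgeR, 8 libraries) for the 5 tested members and the 38 tested genes of 6 lists; red marks genes called higher, blue called lower and grey not called at an adjusted p of 0.05. Eglp2 lies farthest to the right at 2.59, and in the list of other glycerol enzymes no gene is red and Gk2 is blue.

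Genes whose profiles over the 8 libraries were most like those of the members were found by the root mean square distance between centred log2 CPM values. This likeness is a description, and the diet difference is part of each profile. Nearest to Gpdh1 were Fer2LCH, a ferritin chain gene, and CG3662, at distances of 0.0297 and 0.0335 log2 units. Nearest to Gpo1 were CG9164 and CG9743 (0.0504 and 0.0665). Nearest to Eglp4 were Pdxk, the pyridoxal kinase gene, and CG3829 (0.0395 and 0.0982), and nearest to Eglp2 were Idgf2, which encodes a chitinase-like growth factor, and side-VIII (0.118 and 0.133). Nearest to Prip were CG14805 and Ufd1 (0.0238 and 0.0241). The profiles themselves had root mean square sizes of 0.223 for Gpdh1, 0.469 for Gpo1, 0.605 for Eglp4, 1.07 for Eglp2 and 0.0960 for Prip.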

How the data were processed

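The authors deposited raw gene counts, whole numbers with no normalization, for 11769 FlyBase identifiers in 8 libraries. Per the submitters' processing notes, Trim Galore 0.6.7, STAR 2.7.10a, featureCounts and the dm6 build were used; for strand and multiple matches, the setting is not given in the sources used here. Every row named a gene. The Ensembl annotation of that build gave symbols, positions and exonic lengths for 11698 identifiers.

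Counts were fitted in edgeR 4.0.16 (R 4.3.3): filterByExpr with a minimum count of 10 (7844 genes, 99.957% of counts), TMM scaling, robust quasi-likelihood with diet as the only term, and Benjamini-Hochberg adjustment over all 7844 genes at 0.05. A standard error is the fitted log2 change over the root of its F statistic. CPM used TMM-scaled library sizes. TPM used the union of annotated exons and was not TMM-scaled. Counting intervals are exact binomial at 95%; PCR copies were not told apart, so they cover counting error only. No 2 libraries of a diet were alike within counting noise. The model was tested on simulated counts.

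The members, the pathway lists and the marker lists were chosen with earlier results of these data known. Genes were named by rule: the members, the 3 smallest p per list, paralogs of members and glycerol kinases. The rule also took the 2 nearest profiles of each member with at least 2 CPM (log2 of CPM plus 0.5). It further took the 3 tested neighbours on each side of the Eglp cluster and the markers Hml, lz, Mhc, Fbp1 and Uro. Outside the rule, mino, Gpat4, Gapdh1, Gapdh2, Ald1, Got1, Mdh1, Mdh2, aralar1 and fray were added. The markers ItgaPS4, atilla and NtR were also named outside it. The lamellocyte symbol Trehalase was not matched. Alternatives were RLE and library-size scaling, no filter, a minimum of 5 CPM in 4 libraries, limma-voom (limma 3.58.1), DESeq2 1.42.0, a replicate block, dropping each library, dropping CD replicate 1 with HSD replicate 4, and the longest transcript as length.

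Other markers were summed by list. Midgut markers gave 1.33 to 5.80 CPM in HSD, against 0.918 to 1.86 CPM in CD, salivary gland markers 0 to 0.0991 CPM in HSD, against 0.411 to 5.54 CPM in CD, and lymph gland progenitor markers 1254 to 1359 CPM in HSD, against 791 to 853 CPM in CD. The muscle marker Mhc was read at 1.39 to 2.18 CPM in HSD, against 0.852 to 1.57 CPM in CD.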

Additional observations from a re-analysis of the deposited data

Results flagged for a closer look

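In 11 of 82 groups of 4 libraries examined, 1 library stood apart from the other 3 by Dixon's 95% criterion, where chance gives about 1 in 20 groups. Among the members this was Prip on both diets: HSD replicate 1 was read at 908 CPM, with the other HSD libraries at 988 to 994 CPM, and CD replicate 1 at 1174 CPM, with the other CD libraries at 994 to 1014 CPM.

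CD replicate 1 also stood apart for Tpi (53.1 CPM, the others 36.7 to 39.1), bib (3.60 CPM, the others 0.187 to 0.466) and kcc (53.5 CPM, the others 59.6 to 60.4). HSD replicate 4 stood apart for dob (19.6 CPM, the others 15.7 to 16.0) and for the crystal cell marker lz (77.8 CPM, the others 98.6 to 102). In HSD, ClC-a was read at 1.14 CPM in replicate 2 (the others 0.496 to 0.601) and AQP at 0.231 CPM in replicate 1 (the others 0.396 to 0.427). In CD, the fat body marker Fbp1 was read at 9.30 CPM in replicate 3 (the others 0.254 to 1.52), and the summed crystal cell markers were 24391 CPM in replicate 5 (the others 28527 to 28904).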

How the results depend on the processing

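Gpdh1, Gpo1, Eglp2 and Eglp4 kept their direction and call in all 16 alternative fits, with log2 fold changes of 0.28 to 0.46, 0.80 to 1.05, 2.42 to 2.69 and 1.05 to 1.24. Prip ran from −0.27 to −0.04 and was called in 1 fit, library size as the only scaling (−0.27, edgeR adjusted p = 0.00154; 0.00154 to 0.546 over the alternatives), so that 1 member was then called lower. Drip entered 7 of these fits, 6 of them through its HSD libraries, with log2 fold changes from 3.88 to 4.68. With library size as the only scaling 3851 genes were called (690 higher and 3161 lower, 17.9% higher in place of 55.3%), and 6 list genes were higher and 14 lower. Replicate numbers 1, 3 and 4 occur in both diets but did not mark shared deviations (r = −0.13, −0.07 and −0.18); with the replicate block 842 genes were called, and 5 list genes were higher and 3 lower. List genes called lower numbered 10 with DESeq2, 11 with limma-voom and 10 without CD replicate 1 and HSD replicate 4 together. Signs turned for CG1271 (−0.060) and Hsl (−0.011) with library size only, CG8298 (0.017) with the block, bib with limma-voom (0.57) and without CD replicate 1 (0.74; −1.48 to 0.74 leaving out each library), and Gk1 without HSD replicate 2 (0.00098), CD replicate 1 (0.0090; −0.039 to 0.0090 leaving out each library) or CD replicate 1 and HSD replicate 4 (0.0046). The causes were not tested. With the longest transcript as length the Prip share was 84.3% on HSD and 93.3% on CD; leaving out each library, chosen after seeing the data, gave 87.3% to 87.4% on HSD and 94.5% to 94.8% on CD. Counts under about 10 a library, as for Drip on CD and Eglp3, limit what could be seen.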
